A study of Mus musculus with 8 samples.

Results

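The trophectoderm is the outer epithelium of the blastocyst and the founder of the placenta, and its identity is set by a small network of transcription factors. RNA of 10 of these factors (Cdx2, Gata3, Gata2, Tfap2c, Tfap2a, Eomes, Elf5, Tead4, Id2 and Hand1) was followed in mouse blastocysts that carry mutations of Isca2, which encodes a mitochondrial protein of iron-sulfur cluster assembly. The factors were taken by gene symbol, as genes of trophectoderm specification and maintenance, from 55471 genes in the deposited tables. The rule used no values, but the factors were chosen with earlier results of these data known. Whole blastocysts at embryonic day 4.5 were sequenced in 8 libraries. Of these, 3 were homozygous for a G77S allele of Isca2 (G77S), 2 had lost both Isca2 alleles (KO) and 3 were wild type (WT). Per the labels' protocols the embryos came from superovulated heterozygous females mated with heterozygous males and were cultured before cDNA was amplified with a kit for full-length mRNA of single cells. The labels give neither the number of embryos in a library nor the cross that gave the G77S embryos, and nothing in them says that libraries of a genotype came from separate litters, so a p-value here covers the variation among the libraries of a genotype, part of which may be technical.

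In the mouse embryo, TEAD4 acts with the Hippo pathway co-activators YAP1 and WWTR1 in outer cells and switches on Cdx2, and GATA3 acts beside CDX2. TFAP2C is a further activator of the programme, while EOMES and ELF5 keep the trophoblast stem cell state. ID2 binds basic helix-loop-helix factors and keeps them from DNA, and HAND1 is such a factor, required later for trophoblast giant cells.

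Of the 10 factors, 3 were called lower in G77S than in WT blastocysts (Id2, Gata2 and Elf5), where 2.09% of all tested genes were called lower. Of the 3, the Id2 difference was called with any library left out, whereas those of Gata2 and Elf5 sat close to the threshold. By edgeR, 0 of the 10 were called lower in KO against WT, where 0.043% of all tested genes were. The estimates of the 9 factors with counts in KO were all below WT, as were 52.7% of those of all tested genes. Without KO replicate 2, the Elf5 estimate turned to 0.18. The upstream sequences of the 3 genes called in G77S against WT are shown for reference. Each run is the 250 bases before a RefSeq transcription start (GRCm38.p6 coordinates), written 5′ to 3′ along the strand of the gene, with matches to 4 searched motifs in capitals.
Id2, chr12:25096093-25096342, minus strand: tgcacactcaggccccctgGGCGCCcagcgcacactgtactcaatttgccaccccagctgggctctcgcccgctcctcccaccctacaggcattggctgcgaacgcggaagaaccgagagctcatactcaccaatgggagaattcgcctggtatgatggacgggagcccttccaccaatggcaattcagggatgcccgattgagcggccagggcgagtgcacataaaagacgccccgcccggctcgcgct
Gata2, upstream start, chr6:88193641-88193890, plus strand: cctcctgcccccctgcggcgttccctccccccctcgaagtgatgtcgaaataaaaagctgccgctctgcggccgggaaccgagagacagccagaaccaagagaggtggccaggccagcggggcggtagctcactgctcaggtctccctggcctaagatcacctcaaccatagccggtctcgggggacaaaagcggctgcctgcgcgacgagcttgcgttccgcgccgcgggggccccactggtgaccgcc
Gata2, downstream start, chr6:88198414-88198663, plus strand: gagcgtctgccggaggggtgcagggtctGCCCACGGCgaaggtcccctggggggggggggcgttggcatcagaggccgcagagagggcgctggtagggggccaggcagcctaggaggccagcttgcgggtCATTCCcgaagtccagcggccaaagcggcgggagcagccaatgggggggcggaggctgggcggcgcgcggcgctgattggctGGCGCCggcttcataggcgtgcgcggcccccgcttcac
Elf5, upstream start, chr2:103411848-103412097, plus strand: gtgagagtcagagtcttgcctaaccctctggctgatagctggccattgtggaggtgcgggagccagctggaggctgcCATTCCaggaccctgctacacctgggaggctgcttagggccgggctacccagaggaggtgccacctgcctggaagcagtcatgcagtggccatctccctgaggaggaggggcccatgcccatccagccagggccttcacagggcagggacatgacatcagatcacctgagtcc
Elf5, downstream start, chr2:103423818-103424067, plus strand: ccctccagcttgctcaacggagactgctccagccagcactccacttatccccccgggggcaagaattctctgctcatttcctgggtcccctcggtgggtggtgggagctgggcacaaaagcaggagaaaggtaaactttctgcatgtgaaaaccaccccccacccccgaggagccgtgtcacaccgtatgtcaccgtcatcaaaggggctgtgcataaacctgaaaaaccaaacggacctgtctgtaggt

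The motifs were searched on both strands. They were GGAATG for TEAD proteins (CATTCC on the other strand), AGATAA for GATA factors, GCCNNNGGC for AP-2 proteins such as TFAP2C, and GGCGCC for SMAD1 and SMAD5. Among 32851 RefSeq promoter windows of this length in the mouse, 12.6% held the TEAD motif, 9.99% the GATA motif, 13.7% the AP-2 motif and 9.59% the SMAD motif. A SMAD match stood 231 bases before the Id2 start. The downstream Gata2 start had an AP-2 match at 222, a TEAD match at 120 and a SMAD match at 38 bases before it, and the upstream Gata2 start had no match. The upstream Elf5 start had a TEAD match 173 bases before it, and the downstream Elf5 start had none. Of the 10 factors, 7 had an entry in the table, with 10 windows in all, and no window held the GATA motif. Gata3 had AP-2 matches at 246, 231 and 221 bases before its start and a SMAD match at 212 that directly follows the last of these, with no overlap, while Cdx2 had an AP-2 match at 16. A match is a description of the letters and was not tested as a binding site.

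The libraries held 10323965 to 13490295 estimated counts in G77S, 18467418 and 21146927 in KO, and 10790670 to 23842619 in WT, so G77S was below KO without overlap. Genes with a count numbered 15961 to 17560 in G77S, 14451 and 16021 in KO, and 14118 to 15758 in WT. Isca2 itself (chr12:84773251-84775088, plus strand) had 89.1, 105 and 133 CPM (counts scaled to library size) in G77S, 4.84 and 6.20 CPM in KO, and 86.9, 173 and 154 CPM in WT, so its RNA was low in both KO libraries only. It fell by 4.64 on the log2 scale in KO against WT (SE 0.41, adjusted p = 0.00387; 0.0889 without KO replicate 2). Mean fragment length was 182.4 to 186.1 bases in G77S, 244.4 and 292.1 bases in KO and 243.7 to 276.5 bases in WT. G77S did not overlap the other genotypes in this measure, so an effect of the genotype and one of fragment length cannot be told apart. RNA of the Y chromosome was 0.07 CPM in G77S replicate 1 and 0.335 CPM in WT replicate 1, and 215 to 418 CPM in the other 6 libraries. A factor was called where the edgeR quasi-likelihood test gave a Benjamini-Hochberg adjusted p under 0.05 over 13953 tested genes, among which were all 10 factors. In whole blastocysts, fewer cells of a type and less RNA per cell cannot be told apart.

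**Figure D1:**
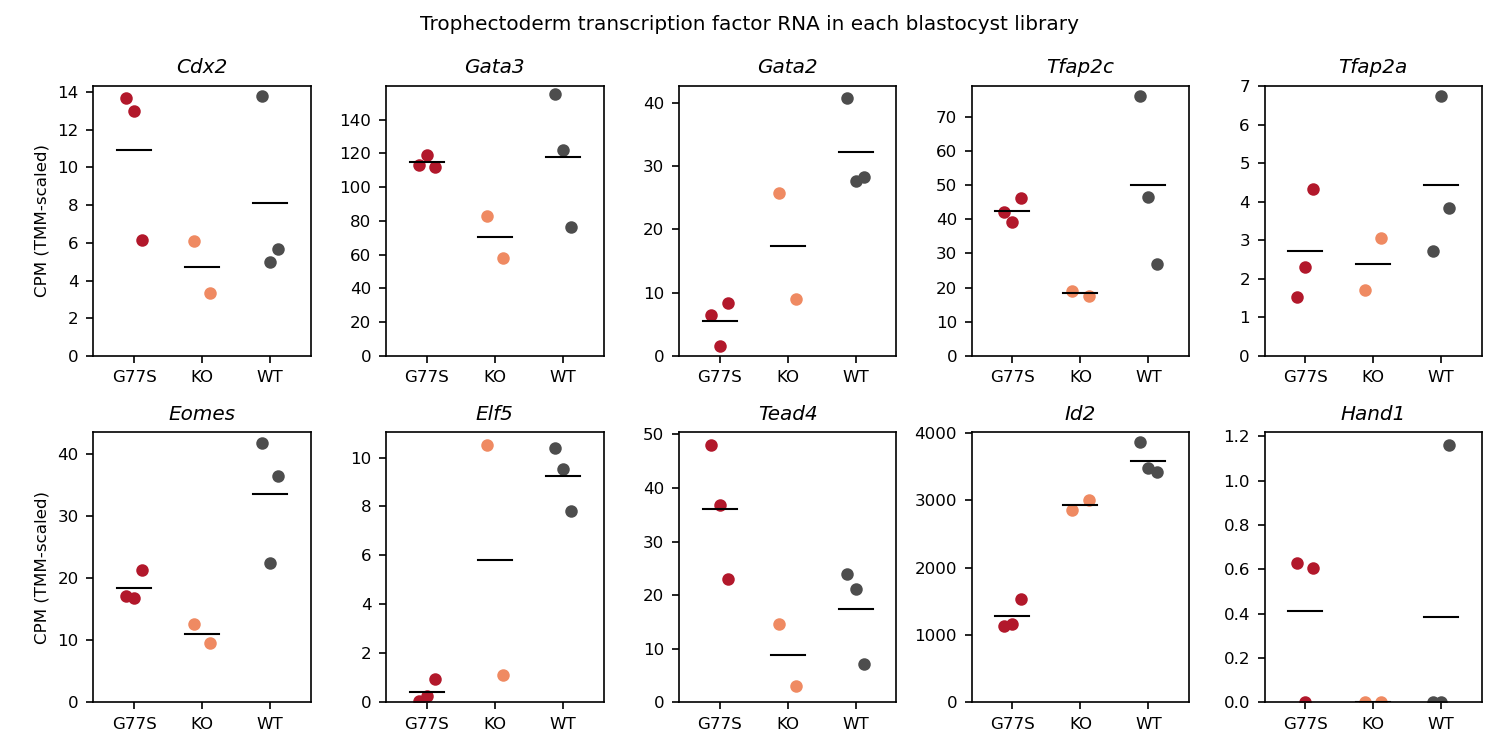
RNA of the 10 factors in each library, as CPM after TMM scaling on linear axes that start at 0, with G77S, KO and WT from left to right. Points are libraries and bars are genotype means. All 3 G77S libraries lie below all WT libraries for Id2, Gata2, Elf5 and Eomes.

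The trophectoderm markers Cdx2, Gata3, Krt8 and Krt18 were detected in every library, and Krt8 averaged 1570 ± 281 CPM in G77S, 2910 ± 1050 CPM in KO and 2560 ± 579 CPM in WT (SD). Krt18 was itself called lower in G77S, with a log2 difference of -1.20 against WT (adjusted p = 0.0222) and -1.46 against KO (adjusted p = 0.012). Id2 (chr12:25093799-25097140, minus strand) was the most abundant of the factors in TPM in every library. It had 1140, 1170 and 1540 CPM in G77S, 2860 and 3000 CPM in KO, and 3870, 3480 and 3420 CPM in WT. The 3 genotypes did not overlap, with G77S lowest and WT highest. Id2 fell by 1.48 on the log2 scale in G77S against WT (SE 0.18, adjusted p = 0.00337), which is 2.80-fold. It also fell by 1.19 in G77S against KO (SE 0.20, adjusted p = 0.00998). The KO estimate against WT was -0.29 (SE 0.20, adjusted p = 0.586). The G77S against WT difference stayed past the threshold with any library left out, with adjusted p between 0.00483 and 0.0306. Against KO it missed the threshold without KO replicate 2 (adjusted p = 0.0593) and without G77S replicate 2 (adjusted p = 0.0578).

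ID2 works by binding E proteins, so their transcripts were read beside it. Of this list of 3 genes, none was called in any comparison. Tcf12 averaged 4.62 ± 2.07 CPM in G77S (SD, n = 3), 4.33 ± 5.74 CPM in KO (SD, n = 2) and 1.58 ± 1.37 CPM in WT (SD, n = 3), and Tcf3 was under 1 CPM on average in each genotype. Among the paralogs of the factors, Id3 was picked out after its values were seen. It averaged 11.2 ± 7.10 CPM in G77S, 28.0 ± 3.68 CPM in KO and 1.65 ± 1.95 CPM in WT (SD), above WT in every mutant library. Among all tested genes, 17.2% lay above WT in every G77S library and 13.1% in every KO library. Neither Id3 difference from WT passed the threshold (G77S adjusted p = 0.111, KO adjusted p = 0.138).

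GATA3 and GATA2 bind the same core motif and share functions in trophoblast. Gata2 (chr6:88193891-88207032, plus strand) had 6.44, 1.63 and 8.42 CPM in G77S, 25.7 and 9.06 CPM in KO, and 40.7, 27.7 and 28.2 CPM in WT. In CPM every G77S library was below every KO and WT library, and both KO libraries were below WT. In TPM G77S (0.55 to 5.73) was below WT (10.7 to 13.2) and overlapped KO (4.15 and 7.18). Gata2 fell by 2.55 on the log2 scale in G77S against WT (SE 0.61, adjusted p = 0.0484), close to the threshold. Leaving out any of the 6 G77S and WT libraries moved the adjusted p to between 0.0764 (without WT replicate 1) and 0.148 (without G77S replicate 1), while the log2 difference stayed between -2.97 and -2.10. Gata2 in KO against WT gave -0.89 (SE 0.65, adjusted p = 0.612) and in G77S against KO gave -1.66 (SE 0.64, adjusted p = 0.172). Both estimates depended on the KO library. KO against WT was -1.83 without KO replicate 1 and -0.32 without KO replicate 2, and G77S against KO was -0.73 without KO replicate 1 and -2.23 without KO replicate 2.

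Gata3 (chr2:9857078-9890034, minus strand) had 113, 119 and 112 CPM in G77S, 82.8 and 58.0 CPM in KO, and 155, 122 and 76.1 CPM in WT. G77S libraries lay inside the WT range, and both KO libraries were below all G77S libraries. The log2 difference was -0.04 in G77S against WT (SE 0.28, adjusted p = 0.963), with a sign that changed between settings, -0.74 in KO against WT (SE 0.32, adjusted p = 0.362) and 0.71 in G77S against KO (SE 0.32, adjusted p = 0.242). Gata3 varied little among G77S libraries, with a highest-to-lowest ratio of 1.07, against 1.43 in KO and 2.04 in WT.

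Because a ratio of 2 transcripts within a library does not depend on library scaling, the Gata2 to Gata3 ratio was taken in TPM, a unit scaled by transcript length. It was chosen after the values were seen. It was 0.161, 0.0129 and 0.0737 in G77S, 0.369 and 0.313 in KO, and 0.285, 0.358 and 0.688 in WT. The ratio was below 0.2 in all G77S libraries and above 0.2 in all KO and WT libraries, and KO lay inside the WT range. A ratio in TPM depends on the estimated transcript lengths, and the place of KO held in TPM only. In CPM, KO replicate 2 had 9.06 for Gata2 and 58.0 for Gata3, a ratio below 0.2 and below every WT library. The G77S ratios were lowest in both units. No test was made on a ratio selected in this way.

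Elf5 (chr2:103411688-103450989, plus strand), an ETS factor, had 0.0700, 0.272 and 0.954 CPM in G77S, 10.5 and 1.11 CPM in KO, and 10.4, 9.53 and 7.83 CPM in WT. In estimated counts this was 1, 4 and 11 in G77S, 177 and 21 in KO, and 186, 96 and 169 in WT. G77S was below all other libraries, and the KO pair was split, with 1 library at the WT level and 1 close to G77S. Elf5 fell by 4.43 on the log2 scale in G77S against WT (SE 1.04, adjusted p = 0.0475). With counts this low in G77S the size of the fold is loosely set: it ranged from -5.68 to -3.92 when libraries were left out. The adjusted p then exceeded the threshold without any of the 6 G77S and WT libraries, at 0.0603 (without WT replicate 1) to 0.190 (without G77S replicate 2). Against KO the G77S estimate was -3.75 (SE 1.06, adjusted p = 0.0768), and it was -1.39 without KO replicate 1 (adjusted p = 0.544) and -5.04 without G77S replicate 3. KO against WT gave -0.68 (SE 1.0, adjusted p = 0.849), which was -3.04 without KO replicate 1 and 0.18 without KO replicate 2.

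Elf3, an epithelial ETS paralog of Elf5, averaged 219 ± 83.2 CPM in G77S (SD, n = 3), 136 ± 75.1 CPM in KO (SD, n = 2) and 264 ± 93.2 CPM in WT (SD, n = 3). It was not called in any comparison, with adjusted p of 0.757 for G77S against WT and 0.383 for KO against WT. The Elf5 to Elf3 ratio in TPM, also chosen after the values were seen, was 0.000497, 0.00388 and 0.00562 in G77S, 0.0476 and 0.0155 in KO, and 0.0278, 0.0459 and 0.0393 in WT. All G77S ratios were below all others.

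Eomes (chr9:118478212-118486132, plus strand), a T-box factor, had 17.1, 16.9 and 21.3 CPM in G77S, 12.6 and 9.54 CPM in KO, and 41.9, 22.5 and 36.5 CPM in WT. In CPM both mutants were below WT without overlap, and KO was below G77S. In TPM G77S (4.89 to 6.33) overlapped WT (5.15 to 11.5), and KO was still below both. In KO against WT the log2 difference was -1.60 (SE 0.41, adjusted p = 0.155), and in G77S against WT it was -0.87 (SE 0.35, adjusted p = 0.192). Neither passed the threshold. DESeq2 called the KO difference (adjusted p = 0.00231) and not the G77S difference (adjusted p = 0.0647). G77S against KO gave 0.73 (SE 0.40, adjusted p = 0.323).

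Tfap2c (chr2:172549593-172558622, plus strand), which encodes the AP-2 gamma factor, had 42.1, 39.2 and 46.2 CPM in G77S, 19.1 and 17.5 CPM in KO, and 76.0, 46.6 and 27.0 CPM in WT. The KO libraries were below all others, and G77S lay inside the WT range. KO against WT gave -1.45 (SE 0.43, adjusted p = 0.193), not called by edgeR and called by DESeq2 (adjusted p = 0.0267). The WT value rested in part on replicate 1, which lacked Y-linked RNA: without it the KO estimate was -1.0 (SE 0.35, adjusted p = 0.254). G77S against WT gave -0.23 (SE 0.36, adjusted p = 0.788), with a sign that changed between settings, and G77S against KO gave 1.22 (SE 0.42, adjusted p = 0.137). The latter was called in 3 of 10 other settings: edgeR on only the 2 genotypes (adjusted p = 0.047) and limma on both TPM scales (0.0449 and 0.0423).

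Tfap2a (chr13:40715302-40738376, minus strand), the AP-2 alpha gene, had 1.54, 2.31 and 4.34 CPM in G77S, 1.71 and 3.07 CPM in KO, and 2.73, 6.75 and 3.85 CPM in WT. The genotypes overlapped, and adjusted p was 0.650 for G77S against WT and 0.718 for KO against WT. This gene is uncertain: 2 antisense genes that overlap it, Gm26688 and Gm47061, held 209 and 169 counts over all libraries, against 393 for Tfap2a, and the sources used here do not say that the counting used strand.

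**Figure D2:**
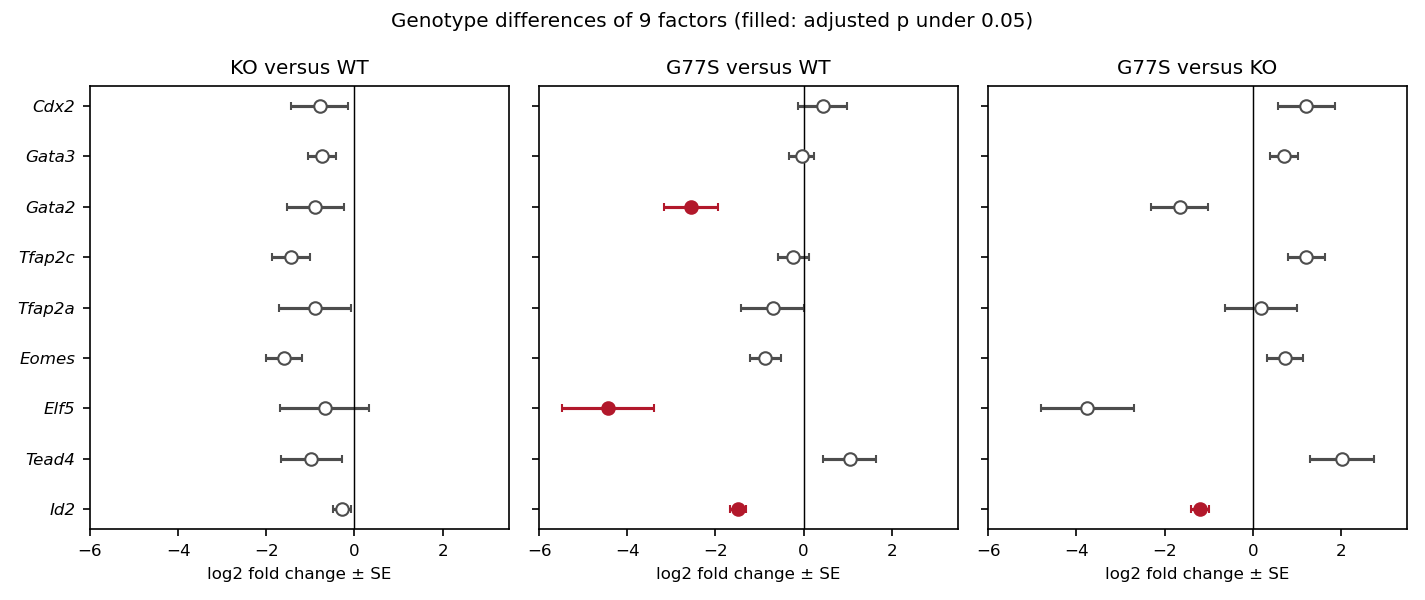
Log2 fold changes of 9 factors in the 3 comparisons, from edgeR, with bars of 1 SE. Filled points have an adjusted p under 0.05: Gata2, Elf5 and Id2 in G77S versus WT, and Id2 in G77S versus KO. Hand1 is left out because its KO counts were 0.

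Tead4 (chr6:128224288-128300823, minus strand), the factor upstream of Cdx2, had 48.1, 36.9 and 23.1 CPM in G77S, 14.6 and 3.07 CPM in KO, and 24.0, 21.2 and 7.09 CPM in WT. All G77S libraries were above both KO libraries, and the lowest G77S library was just under the highest WT library. The log2 difference was 2.03 in G77S against KO (SE 0.72, adjusted p = 0.147), 1.05 in G77S against WT (SE 0.60, adjusted p = 0.366) and -0.98 in KO against WT (SE 0.69, adjusted p = 0.602). None passed the threshold. The G77S against KO difference was called in 5 of 10 other settings, among them DESeq2 (adjusted p = 0.0375). It was 3.55 without KO replicate 1 and 1.3 without KO replicate 2, and KO against WT was -2.49 and -0.25 without the same libraries. In TPM all G77S libraries (9.8 to 18.4) were above all WT libraries (2.25 to 8.72).

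Its co-activator gene Wwtr1 (TAZ) rose in G77S against KO. It averaged 69.1 ± 16.3 CPM in G77S (SD, n = 3), 14.3 ± 0.645 CPM in KO (SD, n = 2) and 32.2 ± 7.77 CPM in WT (SD, n = 3), a log2 difference of 2.28 in G77S against KO (SE 0.37, adjusted p = 0.00911). The call was lost without either KO library, with adjusted p up to 0.0676. Against WT, Wwtr1 was not called, with 1.10 in G77S (adjusted p = 0.0757) and -1.17 in KO (adjusted p = 0.200). Wwtr1 was the 1 gene called among 16 tested genes of the Hippo pathway and its TEAD targets. Stk4, which encodes an upstream Hippo kinase, averaged 23.9 ± 5.76 CPM in G77S, 24.6 ± 3.38 CPM in KO and 32.5 ± 4.17 CPM in WT (SD). The median log2 difference of the list was 0.37 in G77S against KO, 0.18 in G77S against WT and -0.41 in KO against WT, where all tested genes had medians of 0.10, 0.03 and -0.06.

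Cdx2 (chr5:147300805-147307270, minus strand), the caudal-type homeobox factor that defines the lineage, had 13.7, 13.0 and 6.16 CPM in G77S, 6.08 and 3.34 CPM in KO, and 13.8, 4.96 and 5.65 CPM in WT. G77S and WT overlapped fully, and G77S lay above KO by a narrow margin. The log2 difference was 0.43 in G77S against WT (SE 0.56, adjusted p = 0.736), -0.79 in KO against WT (SE 0.64, adjusted p = 0.663) and 1.22 in G77S against KO (SE 0.65, adjusted p = 0.316). The highest WT library was replicate 1, at more than double the others, which leaves a change of Cdx2 within that spread undetectable here.

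Hand1 (chr11:57828705-57832818, minus strand) was near the limit of detection. It had 9, 0 and 7 estimated counts in G77S, 0 and 0 in KO, and 0, 0 and 25 in WT. The genotypes overlapped at 0, and its fitted fold is not read as a result. Of 8 giant cell markers, the prolactin genes Prl3d1 and Prl2c2 and the cathepsin genes Ctsq and Ctsj had 0 counts in every library. Pcsk6 and Plat, the most abundant of that list, were not called: Pcsk6 averaged 11.3 ± 2.62 CPM in G77S, 23.9 ± 0.425 CPM in KO and 30.5 ± 12.5 CPM in WT (SD), and Plat averaged 25.7 ± 5.09 CPM in G77S, 16.7 ± 2.5 CPM in KO and 10.7 ± 10.4 CPM in WT (SD).

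**Figure D3:**
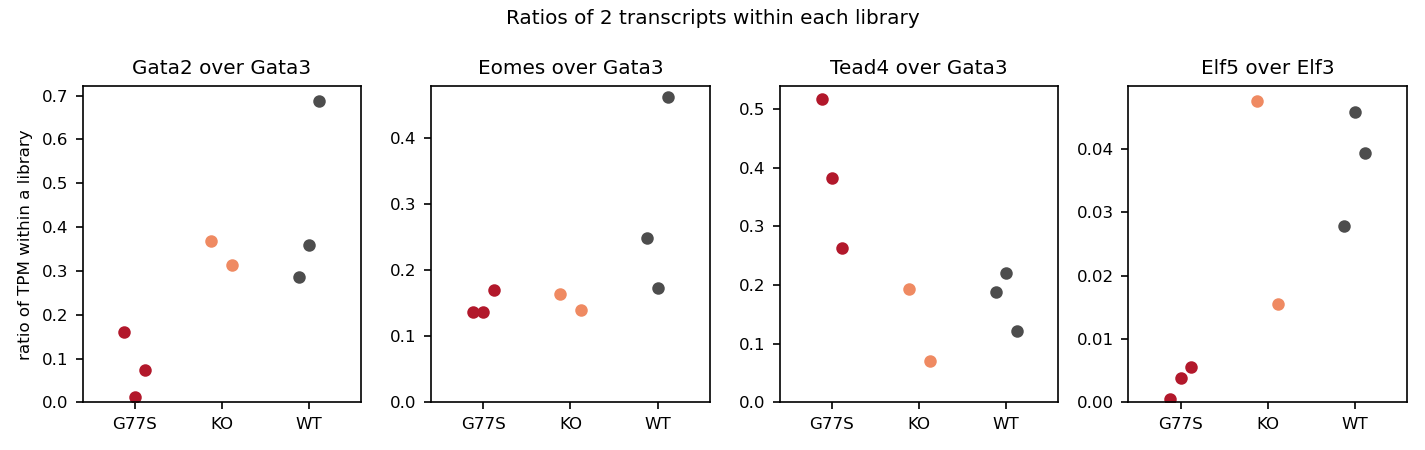
Ratios of the TPM of 2 transcripts within each library, on linear axes that start at 0, with G77S, KO and WT from left to right and a point per library. The Gata2 to Gata3 and Elf5 to Elf3 ratios of G77S lie below those of all KO and WT libraries, and the Tead4 to Gata3 ratios of G77S (0.263 to 0.517) lie above them. The Eomes to Gata3 ratios of G77S (0.137 to 0.17) and KO (0.164 and 0.14) lie below those of WT (0.173 to 0.462). All ratios shown were chosen after the values were seen.

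Levels of different factors can be compared in TPM. By mean TPM the order in G77S was Id2, Gata3, Tfap2c, Tead4, Eomes, Cdx2, Gata2, Tfap2a, Elf5 and Hand1. In KO it was Id2, Gata3, Gata2, Tfap2c, Eomes, Tead4, Elf5, Cdx2, Tfap2a and Hand1. In WT it was Id2, Gata3, Tfap2c, Gata2, Eomes, Tead4, Elf5, Cdx2, Tfap2a and Hand1. Id2 averaged 1160 TPM in G77S, 1930 TPM in KO and 2730 TPM in WT, and Gata3, the next, averaged 38.5 TPM in G77S, 16.3 TPM in KO and 31.6 TPM in WT. In WT all neighbours from Gata3 down to Tfap2a overlapped in their library ranges. In G77S the neighbours Tfap2c and Tead4 overlapped, as did those from Eomes to Tfap2a and the pair Elf5 and Hand1. In KO the pair Gata2 and Tfap2c overlapped, as did those from Eomes to Cdx2. Gata2 averaged 3.01 ± 2.6 TPM in G77S, below Tead4 at 14.8 ± 4.5 TPM, and 12.2 ± 1.38 TPM in WT, above Tead4 at 5.85 ± 3.30 TPM (SD, n = 3 each). These orders are descriptions with no test of a change in rank.

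Over the 10 factors, 3 were called lower and 0 higher in G77S against WT, where 2.09% of all tested genes were called lower and 1.3% higher. In G77S against KO 1 was called lower and 0 higher, against 2.43% and 1.76% of all genes. In KO against WT 0 were called by edgeR, against 0.043% called lower and 0.0788% called higher. At an unadjusted p under 0.05, 3 factors were lower in KO (Gata3, Tfap2c and Eomes), against 6.8% of all genes. DESeq2 called 2 of 9 factors lower in KO against WT (Eomes and Tfap2c), where it called 3.07% of genes lower. The log2 difference in KO against WT was negative for 52.7% of all genes and for the 9 factors with counts in KO (Hand1, the other, had 25 counts in 1 WT library). The median of the factors was -0.89, and it was -1.66 without KO replicate 1 and -0.46 without KO replicate 2. It stood beside medians of -0.70 for 11 paralogs of the factors, -0.67 for 16 epithelial genes of the trophectoderm and -0.06 for all genes. With libraries left out, the paralog median ranged from -1.67 to 0.03 and the epithelial median from -0.71 to -0.26. In CPM, every KO library lay below every WT library for 4 of 10 factors (Gata2, Tfap2c, Eomes and Id2), against 12.5% of all genes. In G77S against WT, 4 of 10 lay below without overlap in CPM (Gata2, Eomes, Elf5 and Id2), against 11.8% of all genes, and none lay above, against 17.2%. In TPM 3 lay below (Gata2, Elf5 and Id2), against 6.92% of all genes, and 1 above (Tead4), against 24.8%. Of the fitted estimates in G77S against WT 7 of 10 were negative, against 48.2% of all genes. Their median was -0.46, between -0.79 (without WT replicate 3) and -0.37 (without G77S replicate 2) with libraries left out, and -0.04 on log2(TPM + 1). At an unadjusted p under 0.05, 4 were lower in G77S than in WT, against 9.78% of all genes, and DESeq2 called 3 lower, against 6.15%. In G77S against KO, 5 of 10 lay above in CPM (Cdx2, Gata3, Tfap2c, Eomes and Tead4), against 24.9% of all genes, and 3 below (Gata2, Elf5 and Id2), against 20.0%. In TPM 5 lay above, against 39.2% of all genes, and 2 below (Elf5 and Id2), against 9.73%. The comparisons of KO and of G77S with WT share the WT libraries, and those of G77S share its libraries, so they are not independent of each other.

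**Figure D4:**
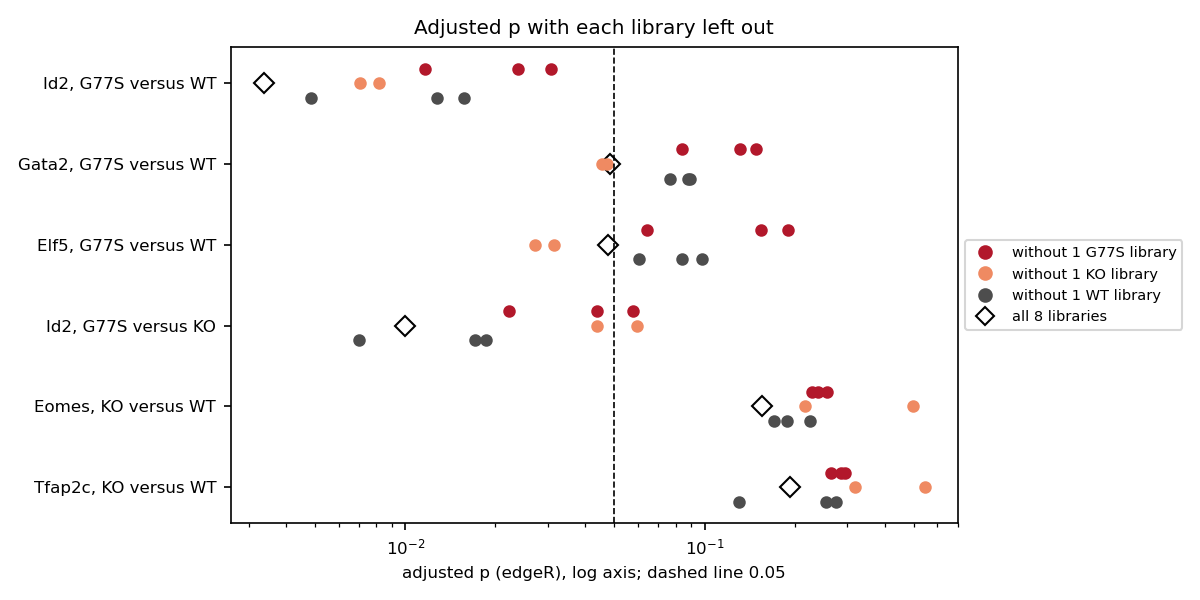
Adjusted p from edgeR (log axis) for 6 differences with all 8 libraries and with each library left out in turn, coloured by the genotype of the library left out. The dashed line is 0.05. Id2 in G77S versus WT stays below 0.05 throughout (0.00483 to 0.0306), while Gata2 and Elf5 cross it whenever a G77S or WT library is left out.

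Among 22 paralogs of the factors, 11 passed the filter and 0 were called in any of the 3 comparisons. Gata6, which marks primitive endoderm, averaged 26.8 ± 1.17 CPM in G77S (SD, n = 3), 27.4 ± 0.905 CPM in KO (SD, n = 2) and 20.0 ± 3.10 CPM in WT (SD, n = 3), with adjusted p of 0.472 for G77S and 0.606 for KO against WT. Cdx4, Gata5, Tfap2b, Tfap2d, Tbr1, Tbx21, Id4 and Hand2 had 0 counts in every library. Of 14 genes of BMP and FGF signalling, which feed Id2 and the trophoblast stem cell factors, 11 were tested and 0 called. Fgfr2, the FGF receptor of trophectoderm, averaged 22.2 ± 7.96 CPM in G77S, 45.5 ± 5.34 CPM in KO and 32.0 ± 5.60 CPM in WT (SD; G77S against KO log2 difference -1.04, adjusted p = 0.145). Bmpr1a, a BMP receptor, averaged 36.1 ± 12.5 CPM in G77S, 37.9 ± 0.217 CPM in KO and 41.2 ± 7.37 CPM in WT (SD).

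Of 12 tested further regulators of trophoblast, 2 rose in G77S against WT and 0 fell. The homeobox gene Msx2 averaged 25.7 ± 5.86 CPM in G77S (SD, n = 3) and 4.79 ± 1.21 CPM in WT (SD, n = 3), a log2 difference of 2.42 (SE 0.55, adjusted p = 0.0419). The zinc finger gene Ovol2 averaged 14.5 ± 4.46 CPM in G77S and 2.42 ± 0.247 CPM in WT (SD, n = 3 each), a log2 difference of 2.58 (SE 0.50, adjusted p = 0.0216). Both also rose in G77S against KO (Msx2 adjusted p = 0.0201, Ovol2 adjusted p = 0.0248), where the Msx2 call was lost without KO replicate 2, G77S replicate 1 or G77S replicate 2 (up to 0.0804) and the Ovol2 call without any G77S or KO library (up to 0.128). Against WT, the Msx2 call was lost without any of the 6 G77S and WT libraries (adjusted p up to 0.154) and the Ovol2 call without any G77S library, WT replicate 2 or WT replicate 3 (up to 0.115). In KO against WT 0 of the 12 were called, and Klf5, an early trophectoderm activator, averaged 128 ± 26.0 CPM in KO (SD, n = 2) and 166 ± 83.1 CPM in WT (SD, n = 3). Satb1 averaged 27.7 ± 9.74 CPM in KO and 25.2 ± 19.1 CPM in WT (SD).

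Epithelial genes of the trophectoderm were also read. Of 16 tested, 5 fell and 0 rose in G77S against WT, with a median log2 difference of -0.98. The fatty acid binding protein gene Fabp3 fell by 1.98 (adjusted p = 0.00332), the tetraspanin gene Tspan8 by 2.46 (adjusted p = 0.00332), Plac1 by 2.86 (adjusted p = 0.00337) and the keratin gene Krt7 by 2.16 (adjusted p = 0.0196). The first 3 held with any library left out, and Krt7 missed the threshold without WT replicate 2 or any G77S library (adjusted p up to 0.104). The remaining called gene, Krt18, had a log2 difference of -1.20 (adjusted p = 0.0222), a call that was lost in some fits with a library left out. In G77S against KO 4 fell and 1 rose. In KO against WT 0 were called, 11 of 16 estimates were negative with a median of -0.67, and the most abundant, Fabp3, averaged 18700 ± 1290 CPM in KO (SD, n = 2) and 18200 ± 2010 CPM in WT (SD, n = 3). The summed level of the 16 genes was 9070 to 13100 CPM in G77S, 32100 and 35400 CPM in KO, and 31200 to 32800 CPM in WT. Fabp3 made up the largest part of the KO and WT sums, so the sum does not stand for the genes one by one. To set Id2 against an epithelial transcript of the same library, its TPM ratio to Krt8 was taken, again after the values were seen. It was 0.982, 1.44 and 1.62 in G77S, 1.32 and 2.29 in KO, and 2.01, 2.58 and 2.54 in WT, so G77S stayed below WT in this ratio and overlapped KO. This reading is for Krt8 alone. In G77S against WT, Id2 had a log2 difference of -1.48, a smaller fall than those of Fabp3, Tspan8, Plac1 and Krt7 and a larger one than that of Krt18. Ratios of Id2 to these genes were not taken.

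Markers of the other blastocyst lineages also differed between genotypes, and their part in the results above was not tested. The summed level of 14 epiblast and inner cell mass markers was 835 to 1020 CPM in G77S, 632 and 780 CPM in KO, and 588 to 646 CPM in WT. Of 13 tested, 3 rose in G77S against WT: Pou5f1 by 2.57 (adjusted p = 0.0104), Utf1 by 2.59 (adjusted p = 0.0118) and Dppa4 by 2.67-fold (adjusted p = 0.0123), the first 2 on the log2 scale. Each of these was lost without G77S replicate 1 or G77S replicate 2, with adjusted p up to 0.0634. In KO against WT 1 rose, Utf1 (3.33, adjusted p = 0.0295), a call that held without WT replicate 1 or KO replicate 1 and was lost without each of the other 6 libraries (up to 0.220). Nanog, named after its values were seen, averaged 119 ± 54.5 CPM in G77S, 40.4 ± 18.4 CPM in KO and 261 ± 38.1 CPM in WT (SD), and was not called (adjusted p of 0.107 for G77S and 0.0529 for KO against WT). The 12 primitive endoderm markers summed to 582 to 1170 CPM in G77S, 1130 and 1770 CPM in KO, and 1140 to 1470 CPM in WT. Per gene, 8 of 10 tested had a positive estimate in G77S against WT with a median log2 difference of 1.88, and 9 of 10 in KO against WT with a median of 5.81. With genes at 0 in a genotype set to a bound of 3 counts over that genotype, the medians were 1.52 in G77S and 4.25 in KO. The fitted G77S median ranged from 0.0 to 3.13 with libraries left out and from 0.0 to 2.26 in other settings. The fitted KO median ranged from 5.22 to 7.16 with libraries left out and from 0.63 to 6.97 in other settings, so its size depended on the setting. Of these 10, Col4a1 was called higher in G77S against WT with 153 counts in G77S and 5 in WT, and Srgn was called higher in KO against WT (adjusted p = 0.0397). With libraries left out, adjusted p reached 0.154 for each, above the threshold without any library but WT replicate 1 for Col4a1, and without WT replicates 2 and 3, both KO libraries and G77S replicate 2 for Srgn. In G77S against KO, Srgn, Lamb1 and Lama1 fell, and the calls of Lamb1 and Lama1 were lost without any G77S or KO library (up to 0.121 and 0.148). Cumulus and granulosa markers summed to 0.347 to 3.08 CPM in G77S, 0.159 and 3.60 CPM in KO, and 2.08 to 6.45 CPM in WT, with 7 of 10, Foxl2 and Amh among them, at 0 counts throughout. Erythroid markers summed to at most 2.24 CPM in any library, with Alas2 at 0 counts throughout.

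The genes whose level followed a factor most closely over the 8 libraries were found by Pearson correlation of log2(CPM + 1) among 5758 genes with a mean of at least 10 CPM. For Id2 these were Arpc2 (r = 0.989), Eif4e2 (r = 0.985) and Zfyve16 (r = 0.981). For Gata3 they were Copg1 (r = 0.981), Actn4 (r = 0.976) and Wwp2 (r = 0.954). These coefficients describe 8 points that share genotype, fragment length and depth, and they are the highest of many, so they carry no test. Cdx2 was below the level set for this comparison.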

How the data were processed

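The deposited tables, 1 per library, hold per gene the expected counts that the authors estimated from aligned reads with RSEM, per the file headers and the submitters' processing notes, and the TPM and FPKM values that the authors' RSEM runs wrote beside them. Reads were trimmed with Trim Galore 0.4.5, aligned with STAR 2.6.1c and quantified with RSEM 1.3.1 on mm10, per the submitters' processing notes, which also name DESeq2 1.42.1. The annotation release is not given in the sources used here. RSEM shares reads between isoforms and similar genes by estimation, so paralogs can lose or gain reads, and TPM depends on the estimated transcript length. FPKM, as deposited, was not used. Gene length and effective length, also in the deposited tables, served for the length trend and for levels per length, and they gave the mean fragment length.

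Identifiers were matched to GENCODE M21 (55230 of 55471, 99.6%), which gave symbols and GRCm38 coordinates. Expected counts were rounded, genes filtered by filterByExpr (13953 kept) and tested with edgeR 4.0.16 (R 4.3.3; TMM scaling, quasi-likelihood F test, 1 mean per genotype over all 8 libraries, Benjamini-Hochberg over all genes tested, threshold 0.05). The script was tested on simulated counts. CPM values are TMM-scaled. Intervals of 1 library's count are not given; 3 counts correspond to 0.139 to 0.298 CPM. Alternatives used RLE scaling, other filters, only the 2 genotypes compared, a replicate block, DESeq2 1.42.0, limma 3.58.1 on log2(TPM + 1) and log2(TPM + 0.1), a gene length trend, and each library left out; a fit on 6 libraries with Y-linked RNA and the separation of genotypes in TPM were added after seeing the data. The factors and gene lists were chosen with earlier results of these data known. Named from each list were up to 4 called genes per comparison by adjusted p, or the 2 most abundant where none was called, and the 3 genes most correlated with Cdx2, Gata3 and Id2. Promoter sequences are from RefSeq (GRCm38.p6).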

Additional observations from a re-analysis of the deposited data

How the results depend on the processing

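Id2 in G77S against WT was called in all 10 other settings (log2 -1.55 to -1.24) and with each library left out. Gata2 was called in 8 of 10 (lost at adjusted p = 0.0508 on log2(TPM + 0.1) and 0.163 when fitted to the 6 libraries that hold Y-linked RNA), and Elf5 in 8 of 10 (lost at 0.056 with the replicate block and 0.149 in the 6 libraries). Deviations from the genotype mean correlated weakly, with r from -0.021 to 0.071 for same-numbered libraries and from -0.071 to 0.056 for the others. The deviations of the 2 KO libraries mirror each other by construction, so the KO values cannot show pairing. The numbers were not read as pairs. With the replicate block, all-gene calls in KO against WT were 4 higher. Tead4 was called in G77S against KO (adjusted p = 0.0431), 1 factor higher. Gata3 reversed to 0.03 in G77S against WT and Tfap2a to -0.03 in G77S against KO. On log2(TPM + 1) and log2(TPM + 0.1) the median of all genes in G77S against WT was 0.23 and 0.41, against 0.03 in CPM (0.34 and 0.59 against 0.10 in G77S against KO, -0.12 and -0.18 against -0.06 in KO against WT); there Gata3 was 0.37 and 0.38 and Tfap2c 0.21 and 0.23, which is 0.13 and -0.03 for Gata3 and -0.03 and -0.17 for Tfap2c relative to those medians. The median of the factors in G77S against WT was -0.04 and 0.00 on these scales. Other reversals in G77S against WT, Hand1 on 16 counts in G77S and 25 in WT, were Gata3 at 0.11 and Hand1 at -0.03 with the length trend removed, and Gata3 at 0.22, Tfap2c at 0.21 and Hand1 at -0.96 in the 6 libraries. Where a KO library is left out, the lone one is assumed to vary like the other genotypes. With libraries left out, Gata3 ranged from -0.27 to 0.22, Tfap2c from -0.52 to 0.21 and Hand1 from -0.50 to 0.67 in G77S against WT, Tfap2a from -0.33 to 0.67 in G77S against KO, and Elf5 from -3.04 to 0.18 in KO against WT.

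Counts of factors called depended on the setting. Lower in KO against WT there was 1 with no filter and 2 with DESeq2; lower in G77S against WT there was 1 in the 6 libraries and 1 to 3 with libraries left out; lower in G77S against KO there were 3 with no filter, 2 with DESeq2 and 0 to 1 with libraries left out; higher in G77S against KO there was 1 with no filter, with only the 2 genotypes, or with DESeq2, and 2 with each TPM scale. All-gene calls in KO against WT were 285 higher and 262 lower with no filter, 34 and 26 with the stricter filter, 358 and 424 with DESeq2, 57 and 38 on log2(TPM + 1), 48 and 38 on log2(TPM + 0.1), 21 and 11 in the 6 libraries, 3 lower with only the 2 genotypes, and 0 to 29 higher and 0 to 15 lower with libraries left out (0 and 0 without KO replicate 2). In G77S against WT they were 598 and 738 with no filter, 791 and 875 with DESeq2, and higher calls were 325 with the stricter filter, 326 with the 2 genotypes, 1178 and 1030 on the TPM scales and 101 in the 6 libraries, with 31 to 263 higher and 51 to 375 lower with libraries left out. In G77S against KO they were 619 and 792 with no filter, 489 and 520 with the 2 genotypes, 939 and 891 with DESeq2, and higher calls were 391, 1543, 1469 and 153 with the stricter filter, the TPM scales and the 6 libraries, with 57 to 420 higher and 91 to 529 lower with libraries left out. Low counts limit what can be read of Elf5, Tfap2a and Hand1, and KO has 2 libraries. The causes of these changes were not tested.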
